A study of Mus musculus with 6 samples.

Results

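The serine/arginine-rich (SR) splicing factor genes were examined in activated mouse CD4 T cells that were wild type (WT) or labelled as a conditional knockout of the SR gene Srsf1 (Srsf1-cKO). Rows of the count table were taken by gene symbol: Srsf1, Srsf2, Srsf3, Srsf4, Srsf5, Srsf6, Srsf7, Srsf9, Srsf10 and Srsf11, which makes 10 of 24047 rows. All 10 passed the filter on low counts, which left 10454 genes to test. The 6 libraries come from 3 mice of each genotype, aged 7 weeks and of the strain labelled B6.129. Naive cells selected from spleen for CD4 and CD62L were activated for 72 h with anti-CD3 at 0.5 µg/mL together with anti-CD28 at 1 µg/mL. Restimulation for 4 h followed, with phorbol myristate acetate at 100 ng/mL, which activates protein kinase C, and the calcium ionophore ionomycin at 1 µM. Both groups had the same culture, so all values are those of strongly stimulated cells. The genotype label of the Srsf1-cKO group is Srsf1-flox/flox dLck.Cre, that is, both alleles floxed and a Cre recombinase driven by the distal Lck promoter, which acts in T lineage cells. The label WT does not say whether those mice carry floxed alleles or Cre.

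SR proteins bind pre-mRNA through RNA recognition motifs and recruit the splicing machinery through a tail rich in arginine-serine repeats, which kinases of the SRPK and CLK families phosphorylate. They promote the inclusion of exons, and several also act in mRNA export, decay and translation. Many SR genes limit their own output: their pre-mRNAs hold so-called poison exons or retained introns that send part of the transcripts into nonsense-mediated decay, and one SR protein can act in this way on the mRNA of another. In GENCODE M21, the mouse annotation of the GRCm38 build, 9 of the 10 members have at least 1 transcript of the nonsense-mediated decay class, against 20.8% of 21951 protein-coding genes. Srsf10 has none annotated. A retained-intron transcript is annotated for 8 of the 10, Srsf9 and Srsf10 being the exceptions, against 41.5% of all protein-coding genes. The deposited tables hold 1 value per gene and library, so these transcripts are summed with the coding ones and cannot be told apart here.

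The libraries hold 7781283 to 10184268 gene counts. Of 6 T cell markers in the count table, 1 (Cd3g) rose and none fell, and their summed level was 1521 to 1863 CPM in WT (gene counts scaled to library size) and 1420 to 1933 CPM in Srsf1-cKO. Marker sums for B, myeloid and NK cells were low but higher in the Srsf1-cKO libraries. The sum of 5 B cell markers was 1.19 to 6.50 CPM in WT and 7.98 to 19.6 CPM in Srsf1-cKO. That of 8 myeloid and antigen-presentation markers was 2.38 to 11.4 and 25.0 to 37.2 CPM. Most of the latter in Srsf1-cKO was H2-Aa (17.0, 25.0 and 11.5 CPM) and Lyz2 (3.13, 4.80 and 14.0 CPM). Csf1r, Emr1 and Fcgr3 were too low to be tested. For 3 NK markers the sums were 0.528 to 1.30 and 3.89 to 13.9 CPM, with Ncr1 at 0 in all 6 libraries. In Srsf1-cKO the NK sum was nearly all Klrd1, at 3.89, 6.25 and 13.6 CPM, with Klrb1c at 0.282 CPM or less. The sum of 2 CD8 markers was lower in Srsf1-cKO, without overlap. It was 24.6 to 42.5 CPM in WT and 16.7 to 22.8 CPM in Srsf1-cKO. Nearly all of it was Cd8b1, which did not pass (edgeR adjusted p = 0.115). The red cell markers Hbb-b1 and Hba-a1 were at 0 in all 6 libraries. The markers of other cells that rose were Cd79a, Lyz2, H2-Aa and Klrd1, and none fell. These marker sums move with genotype, and their part in the results on SR genes was not tested. Over all uniquely mapped reads, the aligner found 27.9 to 30.5 splices per 100 reads in WT and 26.9 to 27.1 in Srsf1-cKO. The groups did not overlap (exact two-sided permutation p = 0.1, the smallest that 3 against 3 libraries can give). Splices at GC/AG sites averaged 1.28% of all splices in WT and 1.11% in Srsf1-cKO. Those at AT/AC sites averaged 0.0777% and 0.0937%, both again without overlap. The share of unannotated splices overlapped. What lies behind these differences was not tested.

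All 10 SR genes were expressed in both groups, and their summed level was higher in the Srsf1-cKO libraries. Levels were compared between genes as FPKM (fragments normalised for the length of the transcript and the depth of the library). In WT the order by mean FPKM was Srsf5 (207 ± 71.4, SD, n = 3), Srsf2 (178 ± 25.1), Srsf3 (155 ± 21.6), Srsf7 (79.7 ± 6.84), Srsf10 (68.5 ± 4.69), Srsf1 (65.7 ± 3.24), Srsf11 (46.9 ± 9.95), Srsf6 (46.1 ± 11.5), Srsf9 (45.4 ± 1.75) and Srsf4 (33.4 ± 0.923). The first 3 lie within each other's spread, as do Srsf10 and Srsf1, and Srsf11, Srsf6 and Srsf9, while Srsf7 and Srsf10 just touch. By FPKM the targeted gene was thus a middling member of its family, with Srsf5, Srsf2 and Srsf3 the abundant ones. The rank depends on the measure. In CPM, which takes no account of length, Srsf1 had the highest WT mean of the 10 (495 ± 42.1, SD). Srsf2 followed within its spread (437 ± 56.8). FPKM rests on the transcript length given to a gene, and annotated coding transcripts of Srsf1 run from 1209 to 5362 bases. In Srsf1-cKO the same 3 led (Srsf2 222 ± 13.5, Srsf5 212 ± 31.7 and Srsf3 173 ± 22.0 FPKM) and Srsf4 was again last (37.2 ± 4.77 FPKM). Srsf7 reached 151 ± 21.5 FPKM there, within the spread of Srsf3. The FPKM of the 10 members summed to 881, 850 and 1048 in WT and to 1109, 1275 and 1122 in Srsf1-cKO. Every Srsf1-cKO library was above every WT library (exact two-sided permutation p = 0.1). The members' summed CPM also did not overlap, at 2549, 2262 and 2676 in WT and 2962, 3213 and 2767 in Srsf1-cKO (ratio of means 1.19, exact permutation p = 0.1). Of all single genes, 25.6% in FPKM and 19.9% in CPM also had every Srsf1-cKO library above every WT library, so nothing particular to the family is read from its sum. RNA was measured in bulk, so a difference in the make-up of the cells and one in mRNA per cell cannot be told apart. On the FPKM scale the median of all genes was itself 0.10 higher in Srsf1-cKO (log2), so the fold changes below come from counts, where that median was 0.01.

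**Figure D1:**
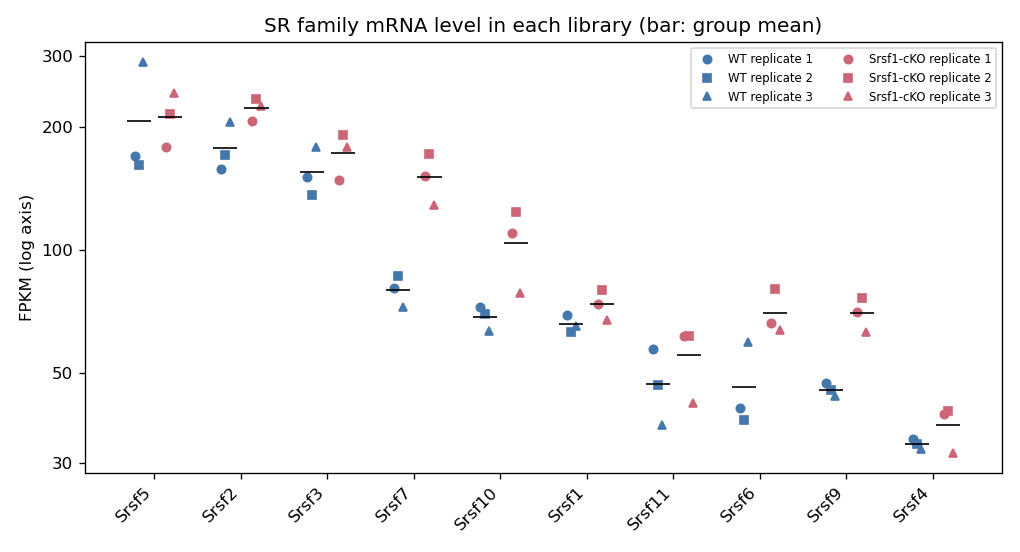
FPKM (log axis) of the 10 SR genes in each library, ordered by WT mean; blue points are WT, red points Srsf1-cKO, marker shapes give replicates 1 to 3 and bars the group means. Srsf7 and Srsf9 show clearly separated groups, Srsf1 overlapping ones, and WT replicate 3 stands high for Srsf5 and Srsf6.

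Of the 10 members, 2 rose and none fell in the Srsf1-cKO libraries by edgeR's quasi-likelihood test at a Benjamini-Hochberg adjusted p under 0.05. Those were Srsf7 and Srsf9. Over all genes tested, 18.4% were called, 8.9% as higher and 9.5% as lower, so the family's 2 of 10 is close to the share of any 10 genes. The other 8 had adjusted p between 0.0836 and 0.926. Their log2 fold changes lay above 0 for 9 of the 10 members, the exception being Srsf5, against 5281 of 10454 genes tested, and their median was 0.16 against 0.01. Groups did not overlap in CPM for the same 2 members, where 19.9% of all genes had every Srsf1-cKO library above every WT library. In FPKM they did not overlap for 5 members (Srsf2, Srsf6, Srsf7, Srsf9 and Srsf10), where the background was 25.6%. limma on log2(FPKM + 1) called Srsf7 and Srsf9 as well, both higher, where it called 18.7% of 9617 genes and 12.3% as higher. From counts, Srsf7 passed in 4 of the 6 fits that leave out 1 library, and Srsf9 in 1 of 6. By limma on FPKM they passed in 4 and 3 of such fits. How far the 2 calls differ in firmness thus depends on the measure.

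**Figure D2:**
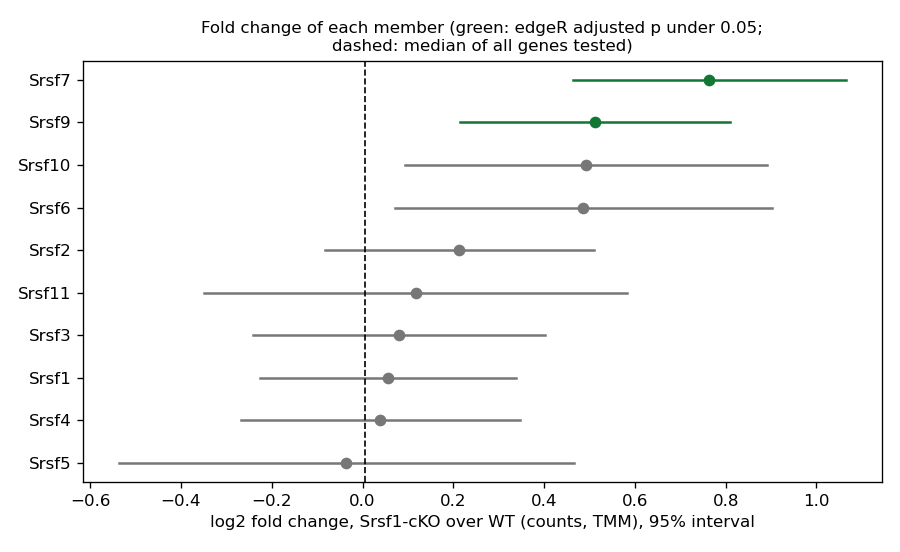
Log2 fold change (Srsf1-cKO over WT, from counts) of each SR gene with its 95% confidence interval; green marks an edgeR adjusted p under 0.05 and the dashed line the median of all genes tested. Srsf7 (0.76) and Srsf9 (0.51) are green, and Srsf6 and Srsf10 lie near Srsf9 with wider intervals.

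Srsf1 encodes the founding SR protein, with a pair of RNA recognition motifs, and is the targeted gene. Its level stood at 69.2, 62.9 and 65.0 FPKM in WT and 73.5, 79.9 and 67.4 FPKM in the libraries labelled Srsf1-cKO. The groups overlap, and the knockout libraries are not the lower ones. In CPM the values were 540, 458 and 486 against 523, 548 and 471, and counts gave a log2 fold change of 0.06 with an SE of 0.12 (edgeR adjusted p = 0.78). The 95% interval of the fold runs from 0.855-fold to 1.26-fold. The gene-level Srsf1 count therefore does not bear out the label, and the comparison is between libraries labelled Srsf1-cKO and WT throughout. Without WT replicate 2, the lowest of its group, the log2 fold change was -0.0047, with the other fits that leave out 1 library between 0.01 and 0.12. The sources used here do not say which exons are floxed, and a count over the whole gene does not resolve exons. Srsf1 overlaps the antisense gene Gm11508 in GENCODE M21, which was not analysed here.

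For Srsf1 the 2 deposited tables were then set against each other. Both summarise the same reads per gene, so this is no independent check on the label and cannot show a loss of exons. CPM divided by FPKM acts as a transcript length in kilobases, up to a constant for each library, and would move if the FPKM program had spread the reads over shorter or longer transcripts. For Srsf1 the quotient was 7.81, 7.28 and 7.47 in WT and 7.11, 6.86 and 7.00 in Srsf1-cKO. The fall is that of the whole table: the quotient was called lower for 76.5% of the 8645 genes compared, with a median log2 difference of -0.10, and for 8 of the 10 members. A shift of that size is the difference between the groups in the TMM scaling factors that enter the CPM (means 0.965 in WT and 1.04 in Srsf1-cKO, a log2 ratio of 0.10), so nothing is read from the 8 calls. Relative to each library's median gene, a comparison added after seeing the data, the log2 difference for Srsf1 was -0.0013 (SE 0.0038, 95% confidence interval -0.011 to 0.0083). None of the 10 members was then called by limma (2 of 8645 genes, 0.0231%, were), and the widest departure among them was that of Srsf7, at -0.05 (adjusted p = 0.598). The count and FPKM tables thus give the same relative change for Srsf1 to within that interval.

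Srsf9 encodes the nearest relative of SRSF1 in the family, also with a pair of RNA recognition motifs but with a short arginine-serine tail. It stood at 47.2, 45.2 and 43.7 FPKM in WT and 70.6, 76.1 and 62.9 FPKM in Srsf1-cKO. Every Srsf1-cKO library was well above every WT library. In CPM it rose from 64.1 ± 4.32 to 91.5 ± 8.08 (SD, n = 3 each), a log2 fold change of 0.51 (SE 0.13, 95% confidence interval 0.21 to 0.81, edgeR adjusted p = 0.0304). In counts the call was lost in 5 of the 6 fits that leave out 1 library. It was kept only without Srsf1-cKO replicate 3 (edgeR adjusted p 0.0303 to 0.138 over the 6). The log2 fold change stayed between 0.46 and 0.58. By limma on FPKM the call was kept in 3 of such fits (adjusted p 0.0264 to 0.0912). B cell, myeloid and NK marker sums were higher in the same 3 libraries, as given above. The ratio of Srsf9 to Srsf1 FPKM within a library, chosen after the values were seen, was 0.682, 0.719 and 0.672 in WT and 0.960, 0.953 and 0.934 in Srsf1-cKO. In WT there was thus clearly less Srsf9 than Srsf1 mRNA per length, and in Srsf1-cKO nearly as much. This ratio needs no scaling between libraries. It was 1.37-fold higher in Srsf1-cKO, with means of 0.691 in WT (SD 0.025) and 0.949 in Srsf1-cKO (SD 0.013). The exact permutation p was 0.1, or 0.133 adjusted over 4 ratios. All 4 ratios, those below included, were picked with the values of their genes known. Their separations are thus a description and add no support to the calls.

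Srsf7 and Srsf3 encode small, closely related SR proteins that couple splicing to mRNA export, and SRSF7 differs by carrying a zinc knuckle. Srsf7 stood at 80.5, 86.1 and 72.5 FPKM in WT and 152, 172 and 129 FPKM in Srsf1-cKO, again with no overlap. In counts it held 2513, 2058 and 1844 reads in WT and 4223, 4426 and 4147 in Srsf1-cKO. Among the 10 members it showed the largest change. Its CPM rose from 263 ± 17.7 to 447 ± 53.0, a 1.70-fold change (log2 0.76, SE 0.13, 95% confidence interval of the fold 1.38 to 2.09, edgeR adjusted p = 0.0101), higher than 91.4% of genes tested. The log2 fold change was 0.69 to 0.85 over the 6 fits without 1 library. Leaving out WT replicate 1 (adjusted p = 0.0539) or Srsf1-cKO replicate 2 (adjusted p = 0.0575) ended the call, in fits where only 1.84% and 2.2% of all genes were called.

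Srsf3 did not pass the test. It stood at 151, 136 and 179 FPKM in WT and 149, 192 and 178 FPKM in Srsf1-cKO, with overlapping groups (log2 fold change 0.08, SE 0.14, 95% confidence interval -0.24 to 0.40, edgeR adjusted p = 0.721). The ratio of Srsf7 to Srsf3 FPKM, chosen after the values were seen, was 0.532, 0.632 and 0.405 in WT and 1.02, 0.896 and 0.722 in Srsf1-cKO. It separated the groups without overlap, with a 1.69-fold higher value in Srsf1-cKO (exact permutation p = 0.1, 0.133 adjusted over 4 ratios).

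**Figure D3:**
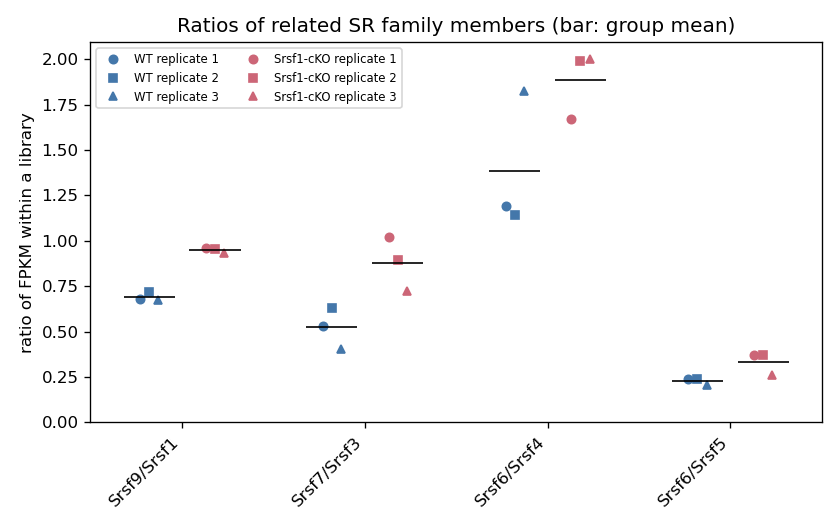
Ratio of FPKM of 2 related SR genes within each library (axis from 0); blue points are WT, red points Srsf1-cKO, marker shapes give the replicate and bars the group means. Srsf9/Srsf1 moves from 0.691 to 0.949 with little spread, and Srsf7/Srsf3 and Srsf6/Srsf5 also separate, while Srsf6/Srsf4 overlaps.

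The upstream sequences of these 2 related pairs are shown because 1 gene of each pair rose and the other did not pass. Each is the 250 bases before the RefSeq transcription start, from GRCm38.p6, written 5′ to 3′ on the gene's strand. The deposited files carry no coordinates and were made on mm9, so the positions apply to GRCm38.p6 only. Capitals mark matches, on either strand, to 5 short motifs, none of which overlap in these windows: the GC box, the CCAAT box, the TATA box, the ETS core and the E-box. The windows lie at chr11:88047123-88047372, plus strand (Srsf1), chr5:115326927-115327176, plus strand (Srsf9), chr17:29032410-29032659, plus strand (Srsf3), and chr17:80207306-80207555, minus strand (Srsf7).
Srsf1: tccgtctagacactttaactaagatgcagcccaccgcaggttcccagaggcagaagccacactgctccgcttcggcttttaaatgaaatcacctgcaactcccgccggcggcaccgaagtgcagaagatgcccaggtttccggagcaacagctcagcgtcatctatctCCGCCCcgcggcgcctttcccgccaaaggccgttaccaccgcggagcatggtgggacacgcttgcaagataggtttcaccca
Srsf9: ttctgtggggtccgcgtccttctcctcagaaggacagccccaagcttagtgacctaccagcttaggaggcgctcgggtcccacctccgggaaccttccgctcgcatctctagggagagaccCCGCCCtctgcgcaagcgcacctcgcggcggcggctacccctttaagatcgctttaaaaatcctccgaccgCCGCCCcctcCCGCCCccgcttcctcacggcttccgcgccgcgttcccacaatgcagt
Srsf3: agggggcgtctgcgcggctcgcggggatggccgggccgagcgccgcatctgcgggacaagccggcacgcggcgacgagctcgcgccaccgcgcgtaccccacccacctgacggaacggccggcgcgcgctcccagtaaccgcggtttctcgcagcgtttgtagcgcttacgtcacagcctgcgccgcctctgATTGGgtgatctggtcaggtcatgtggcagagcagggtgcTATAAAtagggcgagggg
Srsf7: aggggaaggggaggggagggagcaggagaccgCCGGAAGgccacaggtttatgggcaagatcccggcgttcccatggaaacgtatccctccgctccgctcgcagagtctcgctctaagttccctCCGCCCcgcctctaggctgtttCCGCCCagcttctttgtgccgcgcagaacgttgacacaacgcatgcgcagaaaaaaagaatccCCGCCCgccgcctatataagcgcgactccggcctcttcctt
All 10 members matched the RefSeq promoter table, with 13 windows because Srsf4 and Srsf11 have several starts. By the exact letters searched, the Srsf3 window has a CCAAT box and a TATA box and no GC box. Those of Srsf1, Srsf9 and Srsf7 have 1, 3 and 3 GC boxes and no match to the other 2. The Srsf7 window does hold the similar letters tatataa near its end, which a search for TATAAA does not match. No contrast in TATA boxes between Srsf3 and Srsf7 is read from this. The GC box, searched as GGGCGG, was found in 9 of the 10 genes, all but Srsf3 (12 of the 13 windows), against 32.7% of 32851 promoters of the same length. The ETS core, searched as CCGGAAG, was found in 4 of the 10 genes, Srsf4, Srsf5, Srsf7 and Srsf11 (6 of the 13 windows), against 6.91% of all. A pair of the Srsf4 windows overlaps almost fully, so windows of a gene are not separate cases. The TATA box (TATAAA) was found in 2 of 13, those of Srsf2 and Srsf3, against 12.4%. The CCAAT box, by those letters, was found in 3 of 13 (Srsf2, Srsf3 and Srsf10) against 33.8%. The E-box (CACGTG) was found in none of the 13, against 6.02%. These windows are also rich in G and C, with a median of 68.4% against 52.4% over all promoters. A match is a description of letters. The windows of Srsf9, which rose, and Srsf1, which did not pass, both hold GC boxes.

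Srsf4, Srsf5 and Srsf6 form a subgroup that shares a pair of RNA recognition motifs and longer arginine-serine tails, and none of them passed. Srsf6 stood at 40.8, 38.2 and 59.3 FPKM in WT and 66.1, 80.2 and 63.5 FPKM in Srsf1-cKO. The groups do not overlap in FPKM but come close, WT replicate 3 being nearly as high as the lowest Srsf1-cKO library. In CPM they overlap, at 209, 182 and 291 against 306, 358 and 290. Counts gave a log2 fold change of 0.49 (SE 0.18, 95% interval 0.07 to 0.90) that did not pass (edgeR adjusted p = 0.0959). Without WT replicate 3 it was 0.69 and passed (adjusted p = 0.0152).

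WT replicate 3 was also the highest library for Srsf5, the most abundant member in WT by mean FPKM. It stood at 289 FPKM there, against 170 and 161 in the other WT libraries. The Srsf1-cKO libraries lay between these values, at 179, 215 and 243 FPKM. For Srsf5 the log2 fold change was -0.04 (SE 0.22, 95% interval -0.54 to 0.47; edgeR adjusted p = 0.926), and its sign turned in several fits, to 0.25 without WT replicate 3 and 0.07 with scaling by library size alone. Srsf4, the least abundant member by mean FPKM, stood at 34.3, 33.4 and 32.5 FPKM in WT and 39.6, 40.3 and 31.7 FPKM in Srsf1-cKO. Here Srsf1-cKO replicate 3 was the lowest of all 6 libraries (log2 fold change 0.04, SE 0.14, 95% confidence interval -0.27 to 0.35, edgeR adjusted p = 0.86). Srsf4 overlaps the opposite-strand gene Gm12992, which held 21 to 60 counts per library. It also overlaps the same-strand gene A930004J17Rik over 4610 bases in GENCODE M21, for which no counts are given. The ratio of Srsf6 to Srsf5 FPKM, chosen after the values were seen, was 0.240, 0.237 and 0.205 in WT and 0.369, 0.372 and 0.262 in Srsf1-cKO, without overlap (1.46-fold higher, exact permutation p = 0.1, 0.133 adjusted over 4 ratios). That of Srsf6 to Srsf4, chosen likewise, overlapped (exact permutation p = 0.2, also 0.2 adjusted).

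Srsf2, which encodes SC35, a classic marker of nuclear speckles with a single RNA recognition motif, did not pass. It stood at 158, 171 and 206 FPKM in WT and 208, 234 and 226 FPKM in Srsf1-cKO. The groups do not overlap in FPKM, but the highest WT library lies next to the lowest Srsf1-cKO library, and in CPM they overlap (log2 fold change 0.21, SE 0.13, 95% confidence interval -0.08 to 0.51, edgeR adjusted p = 0.277). Srsf2 overlaps Mettl23 and Mfsd11 on the opposite strand in GENCODE M21. The sources used here do not say whether counting used the strand. Mettl23 held 309 to 539 counts and Mfsd11 46 to 89 per library, against 3126 to 5478 for Srsf2.

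Srsf10 encodes an SR protein that acts as a splicing repressor when dephosphorylated, as after heat shock. It stood at 72.6, 69.5 and 63.4 FPKM in WT and 110, 124 and 78.4 FPKM in Srsf1-cKO. Srsf1-cKO replicates 1 and 2 were far above WT, and replicate 3 close to it. In CPM replicate 3, at 175, fell below WT replicate 1, at 183. Counts gave a log2 fold change of 0.49 (SE 0.18, 95% interval 0.09 to 0.89) that did not pass (edgeR adjusted p = 0.0836), and without Srsf1-cKO replicate 3 it was 0.66 and passed (adjusted p = 0.0238).

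Srsf11 encodes p54, a more distant member of the family. It stood at 57.0, 46.5 and 37.1 FPKM in WT and 61.5, 61.6 and 42.1 FPKM in Srsf1-cKO, with overlap. In both groups replicate 3 was the lowest. Counts gave a log2 fold change of 0.12 (SE 0.21, 95% interval -0.35 to 0.58, edgeR adjusted p = 0.719). Srsf11 overlaps the same-strand gene Gm43362 over 2470 bases in GENCODE M21, for which no counts are given.

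**Figure D4:**
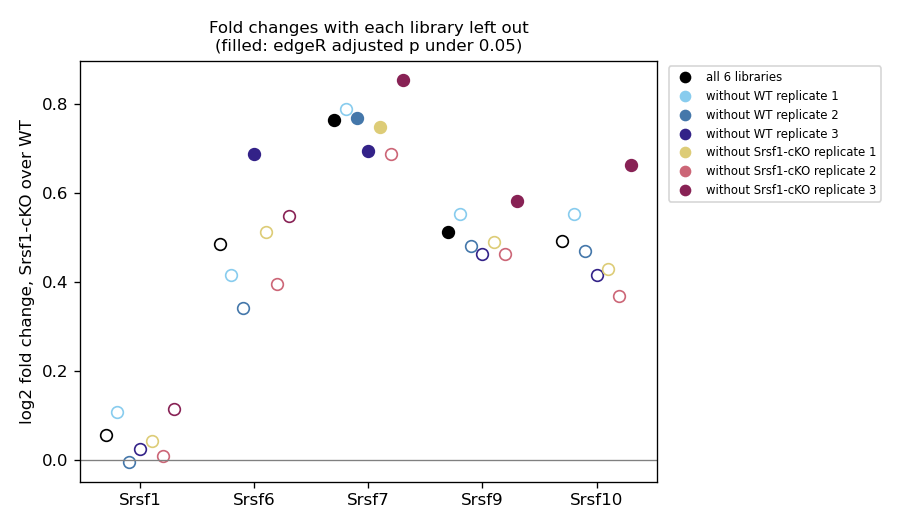
Log2 fold changes from counts of Srsf1, Srsf6, Srsf7, Srsf9 and Srsf10 with all 6 libraries (black) and with each library left out in turn (colours); filled points have an edgeR adjusted p under 0.05. Srsf7 is filled in 4 of the 6 left-out fits and Srsf9 in 1, while Srsf1 stays near 0 and is never filled.

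The make-up of the family was then described as each member's share of the summed FPKM, which is free of library scaling. Srsf7 held 9.14%, 10.1% and 6.92% in WT and 13.7%, 13.5% and 11.5% in Srsf1-cKO, the widest gain without overlap (4.16 percentage points). The share of Srsf9 was also higher in every Srsf1-cKO library (4.95% in WT and 5.98% in Srsf1-cKO on average). For Srsf6 the means were 4.93% and 5.97%, but replicate 3 stood at 5.66% in both groups. The share of Srsf3 was lower in every Srsf1-cKO library, at 17.2%, 16.0% and 17.1% in WT and 13.4%, 15.0% and 15.9% in Srsf1-cKO. Shares must sum to the whole, so a gain of one lowers the others. For these 4 members the exact two-sided permutation p was 0.1 (0.25 adjusted over 10 members), the smallest that 3 against 3 libraries can give. Of all single genes, 25.6% had every Srsf1-cKO library above every WT library in FPKM. A share within the family has no such background here, so nothing particular to these members is read from their separation. Srsf7 and Srsf9 were also separated in shares of the summed counts and in the centred log ratio of FPKM, whereas Srsf3 (exact permutation p = 0.2 in both) and Srsf6 (0.3 and 0.4) were not. The share of Srsf1 was 7.86%, 7.39% and 6.21% in WT and 6.63%, 6.27% and 6.01% in Srsf1-cKO, and the groups overlap (exact permutation p = 0.3). In shares of the summed counts Srsf1 was lower in every Srsf1-cKO library, at 21.2%, 20.2% and 18.1% in WT and 17.7%, 17.1% and 17.0% in Srsf1-cKO (-2.61 percentage points, exact permutation p = 0.1). It was also lower in each by the centred log ratio of FPKM (-0.22, exact permutation p = 0.1), so whether the groups overlap depends on the measure of share.

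Of 5044 abundant genes (mean log2 CPM no lower than 5), those most like Srsf1 in log2 CPM over the 6 libraries were Nfkb1, which encodes an NF-kB subunit (Pearson r = 0.99), Slc4a1ap (0.99), Rangap1, which encodes the GTPase activator of Ran (0.97), Luc7l3, which encodes a U1-associated SR-related protein (0.96), and Nomo1 (0.96). In all, 23 genes had r over 0.9. The 6 points share library and culture, and such values are a description only. Within the family, Srsf11 (0.83), Srsf4 (0.82) and Srsf10 (0.74) varied most like Srsf1, and Srsf5 least (-0.15). Nfkb1 shows the pattern: it stood at 2408, 1904 and 2029 CPM in WT and 2358, 2543 and 1958 CPM in Srsf1-cKO, high in WT replicate 1 and low in Srsf1-cKO replicate 3 like Srsf1.

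Several genes of kinases that phosphorylate SR proteins fell. This list and those below were chosen with earlier results of these data known. Of 11 tested genes for SR protein kinases, import and export, 4 fell and none rose (median log2 fold change -0.21). That is 36.4% called, against 18.4% of all genes, 8.9% as higher and 9.5% as lower. The 4 were the kinase genes Srpk1, Srpk2, Clk1 and Clk4, and Srpk2 was chosen after its value was seen. By mean FPKM the most abundant of the list was Srpk1, which encodes the main cytoplasmic SR kinase. It stood at 262, 231 and 246 CPM in WT and 168, 156 and 127 CPM in Srsf1-cKO. The log2 fold change was -0.71 (SE 0.14, edgeR adjusted p = 0.0127). Clk1 and Clk4, which encode nuclear SR kinases, fell by 0.77 and 0.68 on the log2 scale (edgeR adjusted p = 0.0303 and 0.0278), and Srpk2 fell by 0.74 (0.047). Clk2 (log2 fold change 0.20, adjusted p = 0.463) and the importin gene Tnpo3 (-0.06, adjusted p = 0.796), chosen after their values were seen, did not pass. Leaving out WT replicate 1 or Srsf1-cKO replicate 2 left 0 calls in this list. Without Srsf1-cKO replicate 3 there was 1 call, and without WT replicate 2 there were 2. Of all genes, those fits called 1.84%, 2.2%, 13% and 18.7%, in that order.

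Of 30 SR-related genes tested, 2 rose and 2 fell (13.3% called, against 18.4% of all genes, 8.9% as higher and 9.5% as lower; median log2 fold change 0.02). Arglu1, which encodes an arginine- and glutamate-rich splicing regulator, stood at 36.7, 26.8 and 39.2 CPM in WT and 108, 126 and 73.5 CPM in Srsf1-cKO (log2 fold change 1.58, SE 0.23, edgeR adjusted p = 0.00667), a larger fold than any of the 10 SR genes. Zranb2 rose as well (0.96, adjusted p = 0.035), and Thrap3 fell (-0.73, adjusted p = 0.0155), as did Acin1 (-0.55, adjusted p = 0.0446), chosen after its value was seen. U2af1, which encodes the small U2AF subunit that recognises the 3′ splice site, is the most abundant of the list by mean FPKM. Its log2 fold change was -0.04 (adjusted p = 0.833). Tra2a and Tra2b, chosen after their values were seen, had 0.51 and 0.41 and did not pass (adjusted p = 0.142 and 0.103). Srsf12, the least abundant SR gene, held only 17 to 33 counts per library. Leaving out WT replicate 1, Srsf1-cKO replicate 1 or Srsf1-cKO replicate 2 left 1 call in the list, and leaving out WT replicate 3 left 2. Those fits called 1.84%, 10.6%, 2.2% and 18.5% of all genes, in that order.

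Of 26 tested genes of hnRNP proteins, which often oppose SR proteins at splice sites, 4 rose and 2 fell (23.1% called, against 18.4% of all genes, 8.9% as higher and 9.5% as lower; median log2 fold change 0.08). That share is near the one of all genes. Hnrnpd rose from 272 ± 21.7 to 462 ± 3.50 CPM (log2 fold change 0.76, edgeR adjusted p = 0.00761), and Syncrip from 679 ± 54.0 to 1007 ± 106 CPM (0.57, adjusted p = 0.021). Hnrnpa1 fell (-0.81, adjusted p = 0.014), but it has many near-identical copies in the genome and its count is uncertain. The most abundant by mean FPKM was Hnrnpab (log2 fold change 0.33), which missed the threshold with an adjusted p of 0.093. Of 18 genes of nonsense-mediated decay, the pathway that the poison exons feed, 4 fell and 1 rose (27.8% called, against the same 18.4%; median log2 fold change -0.15, against 0.01 over all genes). Nothing particular to these lists is read from the counts. Smg9 fell from 23.6 ± 2.64 to 9.96 ± 1.42 CPM (-1.24, SE 0.19, edgeR adjusted p = 0.00734), Smg6, which encodes the endonuclease of the pathway, by 0.74 (adjusted p = 0.016) and Upf2 by 0.61 (adjusted p = 0.0231) on the log2 scale. The fourth, chosen after its value was seen, was Upf3b (-0.72, adjusted p = 0.0271). Magoh, which encodes a core protein of the exon junction complex, was the most abundant by mean FPKM. Its level rose from 74.8 ± 5.88 to 115 ± 18.2 CPM (0.62, adjusted p = 0.0246). Calls in the hnRNP and decay lists numbered 0 and 1 with WT replicate 1 left out, in a fit that called 1.84% of all genes. With Srsf1-cKO replicate 1 left out they were 3 and 2 (10.6% of all genes called). With Srsf1-cKO replicate 2 left out they were 1 and 1 (2.2%).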

How the data were processed

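RNA was measured in 6 libraries, grouped by genotype from their titles. The authors deposited whole-number read counts per gene symbol, with no normalization, and FPKM values per gene; the FPKM unit was read from the values. The submitters' processing notes name STAR, Cufflinks and the mm9 build, and STAR 2.4.2a stands in the header of the authors' deposited alignment report. Counting program, strand setting and annotation: not given in the sources used here. An alignment report, deposited with one metric per row, gave splice numbers per library; the number of unused sample columns was 0.

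The gene counts went into edgeR 4.0.16 (R 4.3.3; quasi-likelihood, two-sided, filterByExpr, TMM, genotype as the only term) over all 10454 genes that passed, with Benjamini-Hochberg adjustment and a threshold of 0.05. "Rose" and "fell" are written only of genes that passed. CPM uses TMM library sizes. limma 3.58.1 with a trend was run on log2(FPKM + 1) for 9617 genes at 1 FPKM or more in at least 3 libraries, and on log2(CPM/FPKM) for 8645 genes. Exact two-sided permutation tests were used for single values. The tests were tried on simulated data. Promoters came from RefSeq (GRCm38.p6) and transcript classes from GENCODE M21, matched by symbol.

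As alternatives, DESeq2 1.42.0 and limma-voom were run, and edgeR with scaling by RLE, by upper quartile or by library size, with 2 other filters, with a replicate block, with each library left out, and at a threshold of 0.1; for FPKM a pseudocount of 0.1 was tried. Named are the 10 members and the 5 genes most like Srsf1. Of each list, the 3 genes with the smallest adjusted p and the most abundant gene by mean FPKM are named. Others are marked. The members and lists were chosen with earlier results of these data known. Replicates differed from each other beyond counting noise (chi-square per degree of freedom 6.58 to 39.7 over the pairs). This spread between replicates, which was not split into mouse, culture and library, limits the precision more than the counts per library do.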

Additional observations from a re-analysis of the deposited data

How the results depend on the processing

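Srsf7 and Srsf9 passed under each of the 9 other ways of scaling, filtering and testing that used all 6 libraries, FPKM included. The 2 member calls from counts became 4 at an adjusted p under 0.1. Leaving out 1 library gave 0 to 3 calls from counts and 0 to 4 from FPKM (2 with all). Of all genes, the fits without 1 library called 1.84% to 18.7% from counts and 0.678% to 19.5% from FPKM. Over those fits the log2 fold change was -0.0047 to 0.12 for Srsf1, -0.034 to 0.15 for Srsf3, -0.028 to 0.14 for Srsf4, -0.21 to 0.25 for Srsf5, 0.69 to 0.85 for Srsf7, 0.46 to 0.58 for Srsf9 and -0.041 to 0.30 for Srsf11. For Srsf5 it was also 0.067 with library-size scaling, 0.0075 with limma-voom, 0.0048 with a replicate block and 0.079 on the FPKM scale, where it was -0.075 to 0.35 with 1 library left out and -0.0097 relative to the median gene. In counts, leaving out 1 library gave 0 to 3 calls among SR kinase and transport genes and 1 to 6 among SR-related genes. It gave 0 to 6 among hnRNP genes and 1 to 6 among decay genes. The share of all genes called ranged from 1.84% to 18.7% in these same fits. The change in share was -0.83 to 0.28 percentage points for Srsf2 (-0.16 with all) and -1.26 to 0.21 for Srsf11 (-0.45 with all). Member calls on CPM per FPKM were 8, 0 to 8 with 1 library left out, and 0 relative to the median gene, a setting chosen after seeing the data. The cause was not tested, except that fewer libraries and the removal of a shift common to all genes are part of these settings.

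Replicate numbers were tried as a block. Deviations of same-numbered libraries correlated at 0.22, 0.013 and 0.27, and those of differently numbered ones at -0.32 to 0.20. These values do not settle whether the numbers pair the mice. The labels do not say so, and the main fit has no block. With the block 3 members were called by edgeR, Srsf10 (log2 fold change 0.47, adjusted p = 0.0489) beside Srsf7 and Srsf9. In all, 2270 genes were called with it instead of 1923. With library-size scaling Srsf10 also passed (0.60, adjusted p = 0.042).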
